A study of Mus musculus with 27 samples.

Results

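The 3 libraries made 18 h after serum shock were set against the 24 libraries of the other 8 time points, out of 27 libraries in all. DNA methylation was measured by reduced representation bisulfite sequencing (RRBS), which cuts DNA at a CpG-containing site with a restriction enzyme (written MpsI in the labels), so that mostly CpG-rich stretches and gene starts are read, and then converts unmethylated cytosines with bisulfite. The cells were C2C12, an established mouse myoblast line that forms myotubes when serum is lowered; all libraries came from cells differentiated in 2% horse serum and then given 50% horse serum for 2 h, a shock used to set the circadian clocks of a culture in step. Time points ran from 12 h to 60 h after the shock in steps of 6 h, with 3 libraries at each. Cells without a shock are not part of the data analysed here, and how long the cells had been in low serum is not given in the labels. Whether the 3 replicates of a time point were separate cultures is not stated in the labels; every p-value here therefore reflects the spread among these libraries, part or all of which may be technical.

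The circadian clock is a feedback loop in which CLOCK and BMAL1 bind E-box sequences and drive the Per and Cry genes, whose proteins then repress them. In muscle the clock times genes of fuel use, and serum-shocked myotubes are a common culture model of it. DNA methylation at CpG-rich gene starts is usually low and stable, while CpGs in gene bodies are often methylated. A level measured on many cells is an average, so a few fully methylated cells and many partly methylated ones cannot be told apart.

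The members of the comparison were runs of CpG positions. Of 937644 positions in the table, 853883 autosomal ones (91.1%) had a level in every library, and joining neighbours no more than 100 bp apart gave 22828 runs of at least 3 positions (median 23 positions, 245 bp). A run overlapped an annotated gene in 20410 cases, lay within 5000 bp of one in 2394 and had none in 24. The number of reads behind a level is unknown, and neighbouring levels vary smoothly along the DNA, so positions in a run are not separate measurements. The 18 h libraries lacked a value at 4193 to 10325 positions, against 1577 to 21290 in the other libraries, and 13.6% to 18.1% of their levels were exactly 0, against 5.25% to 25.8%. By both measures the 18 h libraries sat inside the range of the others.

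The sequences of 4 gene starts show where the values below were read. They were chosen among the leading runs that reach a RefSeq start window on either side of the comparison: Aspscr1 and Edrf1 averaged higher at 18 h, Prph and Trim71 lower. Each line holds the 250 bases before the start given in RefSeq's table for the gene, 5′ to 3′ on its own strand, in the GRCm38.p6 assembly, which is the mm10 build. That start is the outer end of the annotated gene for Aspscr1 and Trim71, and lies inside the annotated span for Edrf1 and Prph; capitals mark the CpGs that were measured in the run.
Aspscr1: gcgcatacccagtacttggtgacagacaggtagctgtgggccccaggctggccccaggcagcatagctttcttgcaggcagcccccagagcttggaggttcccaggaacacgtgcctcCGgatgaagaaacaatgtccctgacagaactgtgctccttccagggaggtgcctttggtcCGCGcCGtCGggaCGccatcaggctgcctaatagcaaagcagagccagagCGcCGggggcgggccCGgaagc
Edrf1: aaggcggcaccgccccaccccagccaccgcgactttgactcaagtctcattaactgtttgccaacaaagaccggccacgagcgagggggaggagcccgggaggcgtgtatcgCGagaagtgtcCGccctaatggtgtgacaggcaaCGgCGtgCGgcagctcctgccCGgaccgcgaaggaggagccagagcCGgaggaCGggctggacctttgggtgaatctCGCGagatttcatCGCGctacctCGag
Prph: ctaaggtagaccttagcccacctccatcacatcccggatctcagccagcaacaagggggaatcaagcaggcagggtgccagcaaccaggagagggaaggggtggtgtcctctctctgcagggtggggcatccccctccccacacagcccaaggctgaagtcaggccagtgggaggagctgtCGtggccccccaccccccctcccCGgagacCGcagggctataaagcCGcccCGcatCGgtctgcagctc
Trim71: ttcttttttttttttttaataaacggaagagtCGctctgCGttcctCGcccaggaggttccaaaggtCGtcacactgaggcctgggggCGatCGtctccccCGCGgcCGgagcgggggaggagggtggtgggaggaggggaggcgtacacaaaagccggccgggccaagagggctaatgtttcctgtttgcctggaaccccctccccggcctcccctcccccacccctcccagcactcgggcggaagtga
The Aspscr1 bases are chr11:120672723-120672972 on the plus strand, and 9 of their 12 CpGs were measured. Those of Edrf1 are chr7:133637425-133637674 on the plus strand, with 13 of 25 CpGs measured, those of Prph chr15:99054924-99055173 on the plus strand, with 6 of 7, and those of Trim71 chr9:114564370-114564619 on the minus strand, with 9 of 17. Over the measured positions in these bases the level was 5.74% ± 3.14 at 18 h and 1.72% ± 1.18 at the other times in Aspscr1, and 6.69% ± 2.00 at 18 h and 1.28% ± 1.52 at the other times in Edrf1 (SD, n = 3 and 24). In Prph it was 18.2% ± 4.59 at 18 h and 32.7% ± 7.93 at the other times, and in Trim71 10.4% ± 6.12 at 18 h and 23.2% ± 8.56 at the other times. The palindromic E-box CACGTG, read alike on both strands, occurs once in the Aspscr1 bases, at a CpG that was not measured, and is not among the letters of the other 3; the motif is in 7.14% of 31363 such 300-base start windows, which add 50 bases after the start.

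Across the genome, 1 run passed at an adjusted p under 0.05 (limma with replicate number as a block and Benjamini-Hochberg adjustment over all 22828 runs). It was higher at 18 h, which is 0.00438% of the runs tested, and 0 runs were lower. At an unadjusted p under 0.05 there were 842 runs higher at 18 h (3.69%) and 279 lower (1.22%), 4.91% in all. Leaving out replicate 1, 2 or 3 of 18 h raised the count of calls to 12, 7 and 11, and the call below was among them each time. The same test at the other times called 3 runs (12 h), 0 (24 h), 4 (30 h), 1 (36 h), 0 (42 h), 5 (48 h), 2 (54 h) and 0 (60 h). The median difference, 18 h minus the other times, was -0.0933 percentage points over all runs, and the 95% interval of a run's difference reached a median of 3.78 points either side. The interval lay wholly within 10 points of 0 in 93.9% of the 13815 runs with a mean level under 10%, in 51.8% of the 8410 runs between 10% and 90%, and in 85.7% of the 603 runs over 90%.

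**Figure D1:**
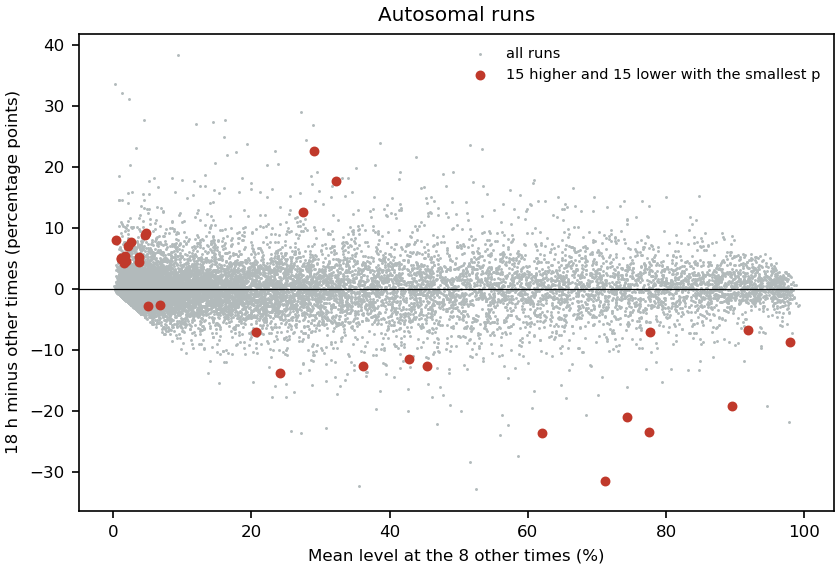
Each grey point is 1 of 22828 autosomal runs: its mean level at the 8 other times in percent (x axis) and the difference, 18 h minus those times, in percentage points (y axis). Red points are the 15 runs with the smallest p in each direction. Of the red points above 0, 12 have a mean level under 10%, while 11 of those below 0 lie between 10% and 90%.

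The run that passed spans chr12:57230373-57230754 (mm10), with 56 positions at 45 CpG sites. It covers the lower ends, by coordinate, of Prps1l3, a gene named for its likeness to phosphoribosyl pyrophosphate synthetase, which supplies nucleotide synthesis, and of Mipol1, a gene named after a human limb malformation. Prps1l3 begins at 57230412 and Mipol1 at 57230425 by coordinate; the strand of both is missing from the tables used here, so no start is assigned. Its level was 6.64%, 4.36% and 7.37% in the 18 h libraries, against 0 to 2.61% with a median of 1.05% in the other 24. All 3 libraries at 18 h were above all others. The difference was 5.04 points (SE 0.608, 95% interval 3.76 to 6.32, limma adjusted p = 0.00392). Against 12 h and 24 h alone it was 5.40 points, with a limma adjusted p of 0.0112, and this was again the only run of 22828 to pass (0.00438%); at an unadjusted p under 0.05, 3.34% of runs were higher than at these neighbouring times and 1.76% lower, 5.10% in all. Without replicate 3 of 24 h, 0 runs passed against these neighbouring times (smallest limma adjusted p = 0.0523), and without replicate 1 of 18 h 11 did.

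**Figure D2:**
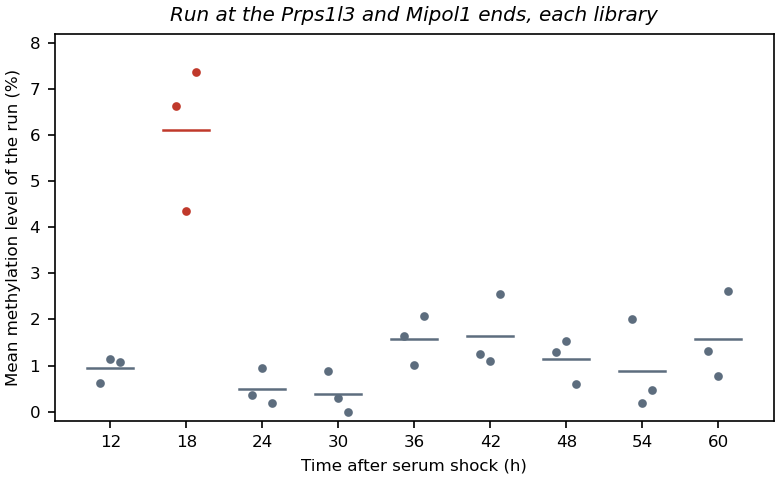
Mean methylation level of the run at the Prps1l3 and Mipol1 ends in percent (y axis) by hours after serum shock (x axis); each point is 1 library, each bar the mean of 3, with 18 h in red. The 18 h points lie between 4.36% and 7.37%, and the highest of the other 24 is 2.61%.

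The 3 libraries at 18 h did not carry this methylation at the same CpGs. In the first stretch of the run (16 positions) their levels were 0.221%, 1.23% and 0, against a mean of 0.601% in the other libraries. In the middle stretch (29 positions) replicates 1 and 2 had 12.7% and 7.74%, above the highest other library at 4.45%, and replicate 3 had 1.69%. In the last stretch (11 positions) replicate 3 had 33.1%, above the highest other library at 10.9%, and replicates 1 and 2 had 0. From 149.5 bp past the centre on, replicate 3 had the same 33.3% at every site, and the highest other library 11.1%. How many reads lie behind these equal values is unknown. Outside the last stretch replicate 3 was not above all others, so its place in the run mean rests on this stretch. At 0 of the 45 sites were all 3 libraries above all 24 others. Tested one by one among 41234 stretches split at gaps over 40 bp, a split chosen after seeing the data, none of the 3 passed (limma adjusted p = 0.995, 0.288 and 0.843); the 1 stretch that then passed was in Taf2, a subunit of the general transcription factor TFIID. In pieces of at most 20 positions the 1 call was in Mtfr1l. The call at Prps1l3 held with each single library left out (27 of 27, limma adjusted p 0.00178 to 0.0332) and was lost when all libraries of replicate number 1, 2 or 3 were left out (limma adjusted p = 0.329, 0.173 and 0.285), with differences of 4.83, 5.82 and 4.48 points in the 18 libraries that remained. The next run, 157 bp away in Mipol1, differed by -1.36 points (limma unadjusted p = 0.728).

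**Figure D3:**
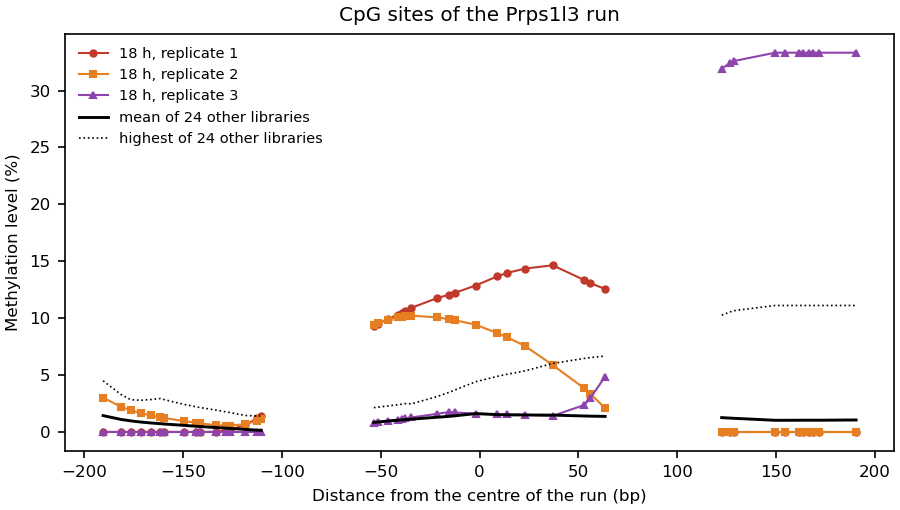
Methylation level in percent (y axis) at the CpG sites of the Prps1l3 run by distance in bp from its centre (x axis), with 1 coloured line for each 18 h library, a black line for the mean of the 24 other libraries and a dotted line for the highest of them. Replicates 1 and 2 are high in the middle stretch (means 12.7% and 7.74%) and replicate 3 in the last (33.1%).

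The other 14 runs with the smallest p among positive differences did not pass (limma adjusted p 0.198 to 0.330). Of these 15 runs with Prps1l3, 12 had a mean level under 10%, as did 13815 of all 22828 runs. Efs encodes a docking protein of the Cas family that binds Src kinases. Its run, chr14:54926722-54927080, had 35.4%, 41.4% and 43.3% at 18 h, against 17.2% to 36.6% with a median of 27.3% at the other times. Replicate 1 lay below the highest of the others and the other 2 above it. The difference was 12.5 points (SE 2.20, limma adjusted p = 0.198). The first 12 positions had 13.9%, 34.0% and 47.5% at 18 h against a mean of 12.5% at the other times, and the next stretch had 51.4%, 49.9% and 32.0% at 18 h against 43.9%, so the libraries differed in order along the run.

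Mri1 encodes methylthioribose-1-phosphate isomerase, an enzyme of methionine salvage. Its run across the gene start, chr8:84256814-84257447, had 3.36%, 9.09% and 6.72% at 18 h, against 0.590% to 4.23% with a median of 1.60% at the other times, so 2 of the 3 libraries stood above all others. The difference was 4.59 points (SE 0.817, limma adjusted p = 0.198), and the mean was higher at 29 of its 41 sites. A stretch of 43 positions inside the gene had 7.97% at 18 h and 1.69% at the other times. The next 10 positions, nearer the start, had 1.41% at 18 h and 1.94% at the other times. Before the start, 3 measured positions had 0 at 18 h and 2.26% at the other times. Aspscr1 encodes TUG, which tethers vesicles with the glucose transporter GLUT4 in muscle and fat. The run that reaches its start, chr11:120672841-120673012, had 5.84%, 6.40% and 9.41% at 18 h, against 0 to 5.03% with a median of 1.43% at the other times. All 3 libraries were above all others, and unlike Prps1l3 the mean was higher at each of its 14 sites, by 3.10 to 7.67 points. The difference over the run was 5.44 points (SE 0.990, limma adjusted p = 0.198). With the 18 h libraries fitted against the others as a pair of groups, Mri1 and Aspscr1 both passed (limma adjusted p = 0.0299), and 3 runs were called in place of 1. With M values, defined below, neither passed (limma adjusted p = 0.626 for Aspscr1).

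Sync encodes syncoilin, an intermediate filament protein of muscle. Its run, chr4:129287778-129287970, had 19.5%, 7.79% and 13.2% at 18 h, against 1.03% to 9.98% with a median of 4.27% at the other times, with replicate 2 inside that range. The difference was 8.82 points (SE 1.78, limma adjusted p = 0.330). Mtfr1l belongs to a family of mitochondrial fission regulators. Its run, chr4:134534415-134534723, had 9.81%, 5.74% and 9.08% at 18 h, against 1.62% to 7.37% with a median of 3.76% at the other times, again with replicate 2 inside the range. The difference was 4.44 points (SE 0.907, limma adjusted p = 0.330), and the mean was higher at all of its 32 sites.

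Among the rest, several low runs in or at genes had differences of 4 to 10 points, each with a limma adjusted p of 0.330. Edrf1, an erythroid differentiation factor, averaged 6.14% ± 2.10 at 18 h and 1.19% ± 1.37 at the other times (SD, n = 3 and 24), and Bfsp1, a filament protein of the eye lens, 5.90% ± 1.92 at 18 h and 1.64% ± 1.32 at the other times. The Bfsp1 libraries were all above the others, and those of Edrf1 were not. Asf1a, a histone chaperone, averaged 10.2% ± 5.53 at 18 h and 2.53% ± 1.98 at the other times, a difference of 7.69 points that was 3.74 when neighbours up to 200 bp apart were joined and 4.57 to 10.2 with libraries left out. Pex19, which brings proteins to the peroxisome membrane, averaged 9.15% ± 3.93 at 18 h and 2.14% ± 2.24 at the other times. Cipc encodes a repressor of CLOCK and BMAL1; its run had 6.91%, 13.2% and 21.4% at 18 h, against 2.36% to 8.47% at the other times, with replicate 1 inside the range. Prkcd, protein kinase C delta, had 0, 9.31% and 15.9% at 18 h, against 0 to 2.77% at the other times, so it rested on 2 libraries. Nae1, a subunit of the enzyme that activates the ubiquitin-like protein NEDD8, averaged 8.85% ± 3.55 at 18 h and 3.70% ± 1.38 at the other times.

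At intermediate levels, Loxl1, which crosslinks elastin, had 54.6%, 43.7% and 51.6% at 18 h, against 18.6% to 49.8% at the other times, a difference of 17.8 points. Abca1, the cholesterol exporter, had 58.3%, 51.0% and 45.9% at 18 h, against 9.81% to 46.2%, a difference of 22.6 points. Neither passed (limma adjusted p = 0.330), and 1 library of Loxl1 and 1 of Abca1 lay inside the range of the others. Joining neighbours up to 200 bp apart brought these differences to 3.63 and 7.96 points, over longer runs that take in more CpGs.

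The 15 runs with the smallest p among negative differences had limma adjusted p-values of 0.331 to 0.633, and none passed. En1 is a homeobox gene of midbrain and limb patterning. A run 1115 bp from it, chr1:120601304-120601372, had 100%, 82.6% and 85.1% at 18 h, against 91.6% to 100% with a median of 99.5% at the other times. Replicates 2 and 3 lay below all others and replicate 1 was fully methylated. The difference was -8.64 points (SE 1.97, limma adjusted p = 0.331). Nr1i2 encodes PXR, a nuclear receptor for foreign compounds. Its run, chr16:38294045-38294120, had 50.0%, 49.4% and 62.7% at 18 h, against 56.0% to 100% with a median of 77.9% at the other times, so 2 of 3 libraries lay below all others. The difference was -23.5 points (SE 5.40, limma adjusted p = 0.331).

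Fbxo44 encodes an F-box protein that selects targets for ubiquitin ligation. Its run, chr4:148153560-148153615, had 80.5%, 55.3% and 75% at 18 h, against 73.0% to 100% with a median of 90.1% at the other times, and only replicate 2 lay outside that range. The difference was -19.2 points (SE 4.44, limma adjusted p = 0.331). A run 937 bp from 1700016K19Rik, a gene known by its clone name, chr11:75998908-75998975, had 61.6%, 42.2% and 15.1% at 18 h, against 38.8% to 92.9% with a median of 72.3% at the other times, and only replicate 3 lay outside that range. Its 18 h libraries were spread more widely than those of the other leading runs (SD 23.3), and the difference was -31.5 points (SE 7.77, limma adjusted p = 0.412).

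Scg5 encodes 7B2, a chaperone of a prohormone convertase. Its run, chr2:113827382-113827465, had 85.9%, 84.3% and 84.9% at 18 h, against 85.9% to 98.4% with a median of 91.3% at the other times; all 3 were below all others, by a margin that vanished on rounding for replicate 1. The difference was -6.78 points (SE 1.77, limma adjusted p = 0.494). Epha4 encodes a receptor for ephrins. A run 880 bp from it, chr1:77515987-77516586, had 2.39%, 1.73% and 2.66% at 18 h, against 2.25% to 6.91% with a median of 5.19% at the other times, so replicate 2 alone lay outside the range. The difference was -2.81 points (SE 0.746, limma adjusted p = 0.498), and 0.334 points when neighbours up to 200 bp apart were joined.

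**Figure D4:**
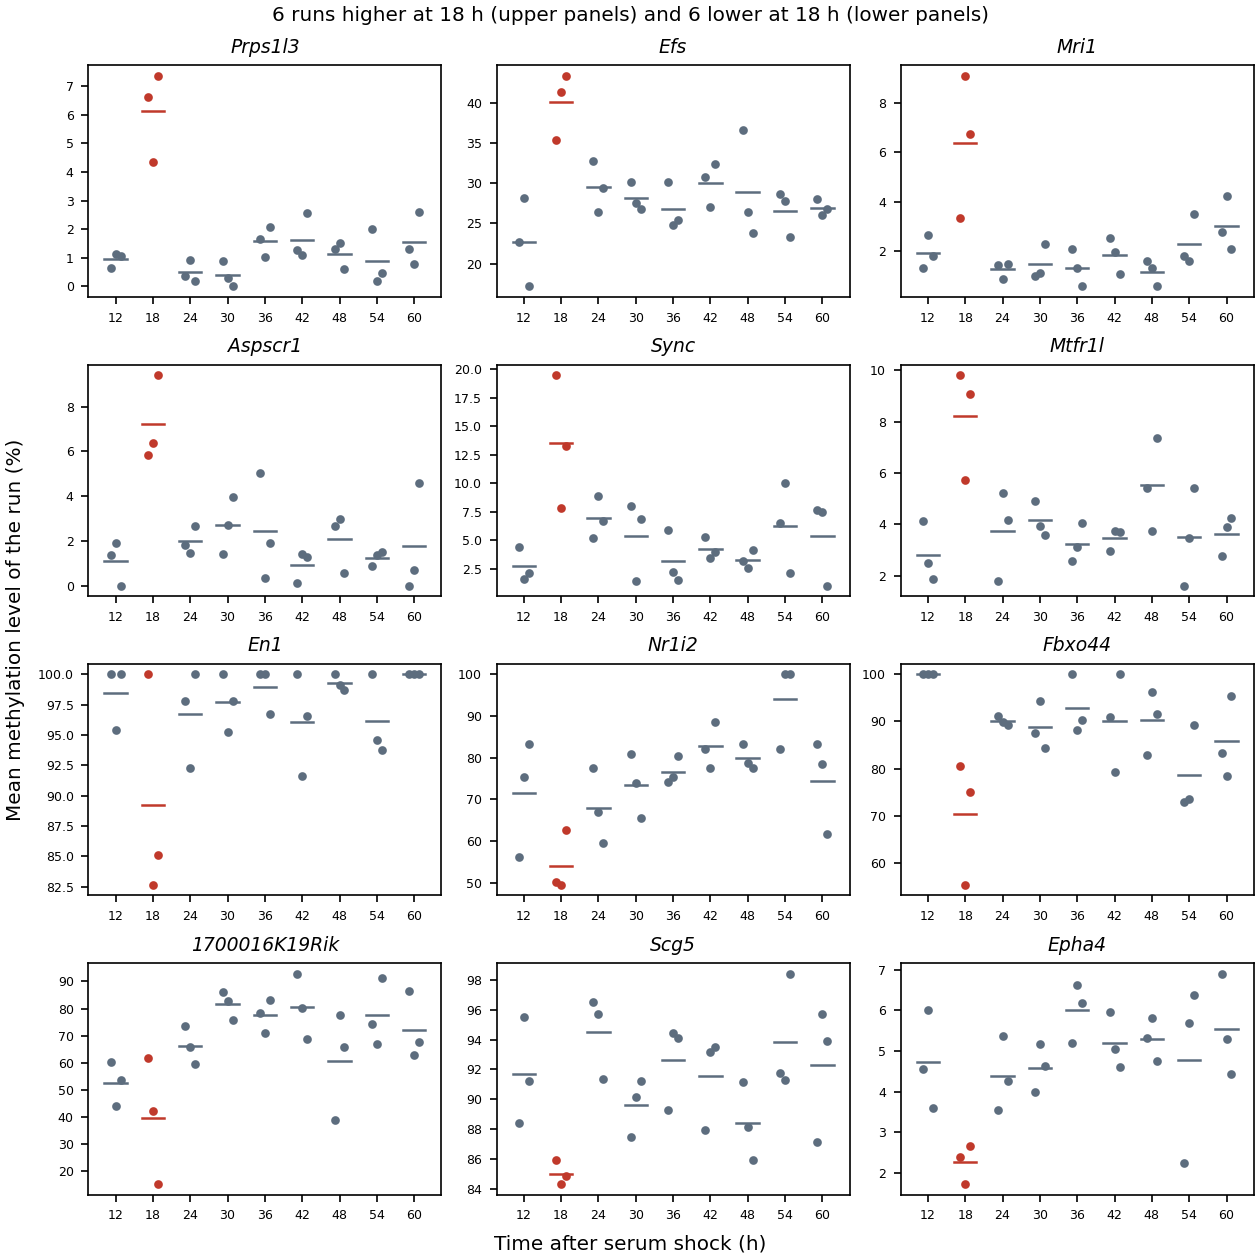
Mean methylation level in percent (y axes, each panel on its own scale, not starting at 0 in all) by hours after serum shock (x axes) in the 6 runs with the smallest p among positive differences (upper 2 rows) and the 6 among negative ones (lower 2 rows). Points are libraries and bars means of 3, with 18 h in red; all red points lie outside the grey ones for Prps1l3, Aspscr1 and Scg5.

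Trim71, an RNA-binding protein and let-7 target of early development, had 10.6%, 3.31% and 16.9% at 18 h, against 5.0% to 40.5% at the other times. Prph encodes peripherin, an intermediate filament protein of peripheral neurons; its run, chr15:99055106-99055357, lies inside the annotated gene (99053579 to 99058978, plus strand) and had 30.4%, 30.6% and 32.9% at 18 h, against 34.5% to 50.5% at the other times. The Prph libraries at 18 h were all below the others. Their SD was 1.4, against 4.97 over the libraries of all other times pooled. Taken time by time, the SD was 1.39 at 24 h and 2.66 to 7.54 at the remaining times. A narrow spread was therefore not particular to 18 h. The difference was -11.5 points (SE 3.09, limma adjusted p = 0.500). Btrc encodes the F-box protein that marks PER proteins for degradation; a run 710 bp from it averaged 23.5% ± 7.43 at 18 h and 36.2% ± 5.88 at the other times (limma adjusted p = 0.572). Batf encodes a transcription factor of lymphocytes. A run 1714 bp from it averaged 38.3% ± 10.8 at 18 h and 62.0% ± 10.6 at the other times (limma adjusted p = 0.530). Mzb1, a plasma cell chaperone, averaged 53.3% ± 13.5 at 18 h and 74.3% ± 8.77 at the other times (limma adjusted p = 0.614). Differences at Ahsg, the liver protein fetuin-A, at Cmtm3, at Kazn, which encodes kazrin, and at Pdlim1, a PDZ and LIM protein of the actin cytoskeleton, were -12.6, -7.09, -7.03 and -2.59 points, with limma adjusted p-values of 0.592, 0.529, 0.633 and 0.633.

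Runs whose 18 h libraries were all outside the range of the other 24 numbered 6 on the high side (0.0263% of runs) and 6 on the low side (0.0263%). Besides Prps1l3, Aspscr1, Bfsp1, Scg5 and Prph, these were Smpd5, Theg, Cdh1, Ret, Wtip, Arl6ip1 and Mindy2, named here after their values were seen. Cdh1, which encodes the epithelial adhesion protein E-cadherin, had 83.8% to 86.3% at 18 h, against 50.3% to 81.8% at the other times. Smpd5, a sphingomyelin phosphodiesterase, had 76.2% to 81.2% at 18 h, against 45.0% to 71.5%. Ret, a receptor tyrosine kinase of neural crest development, had 4.41% to 5.11% at 18 h, against 5.48% to 18.9%. None passed the test (limma adjusted p 0.488 to 0.992 for these 7).

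At 42 h, when a rhythm of 24 h would come round again, none of the 30 leading runs stood out. The contrast set the 3 libraries of 42 h against the 7 times other than 18 h; it shares those 7 times with the 18 h contrast, so the values are given side by side only. Over all runs it called 0 at an adjusted p under 0.05 (limma), with 758 runs higher at 42 h (3.32%) and 284 lower (1.24%) at an unadjusted p under 0.05, 4.56% in all. Of the 15 runs with positive differences at 18 h, 0 had an unadjusted p under 0.05 at 42 h, and likewise 0 of the 15 with negative ones. Prps1l3 had 1.26%, 1.09% and 2.56% at 42 h, a difference of 0.633 points (95% interval -0.656 to 1.92, limma unadjusted p = 0.315), beside 5.04 points at 18 h. That interval lies below the 3.76 points at the low end of the 18 h interval. Because the run was chosen on its 18 h values, the gap between the intervals is no test. Efs differed by 2.98 points at 42 h (-1.69 to 7.65) beside 12.5 at 18 h, Mri1 by 0.0798 (-1.65 to 1.81) beside 4.59, and Aspscr1 by -0.962 (-3.06 to 1.14) beside 5.44. Cipc differed by -0.0109 points at 42 h (-4.19 to 4.16) beside 9.11 at 18 h. Nr1i2 differed by 5.85 points at 42 h (-5.60 to 17.3) beside -23.5 at 18 h, and Btrc by 1.06 (-6.43 to 8.54) beside -12.7. The medians at 42 h were -0.479 points over the 15 higher runs, beside 7.01 at 18 h, and -0.309 over the 15 lower ones, beside -12.6. Runs with all 42 h libraries outside the range of the 21 others numbered 5 on each side (0.0219% each). The count of calls at 42 h was 7, 10 and 5 without replicate 1, 2 or 3 of 42 h, and 1 without replicate 2 of 18 h, of 30 h or of 60 h. Set directly against 42 h, a comparison added after seeing the data, 18 h gave 0 calls (limma), with 2.45% of runs higher and 2.18% lower at an unadjusted p under 0.05, 4.63% in all; Prps1l3 was 4.49 points higher at 18 h than at 42 h (limma adjusted p = 0.663).

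**Figure D5:**
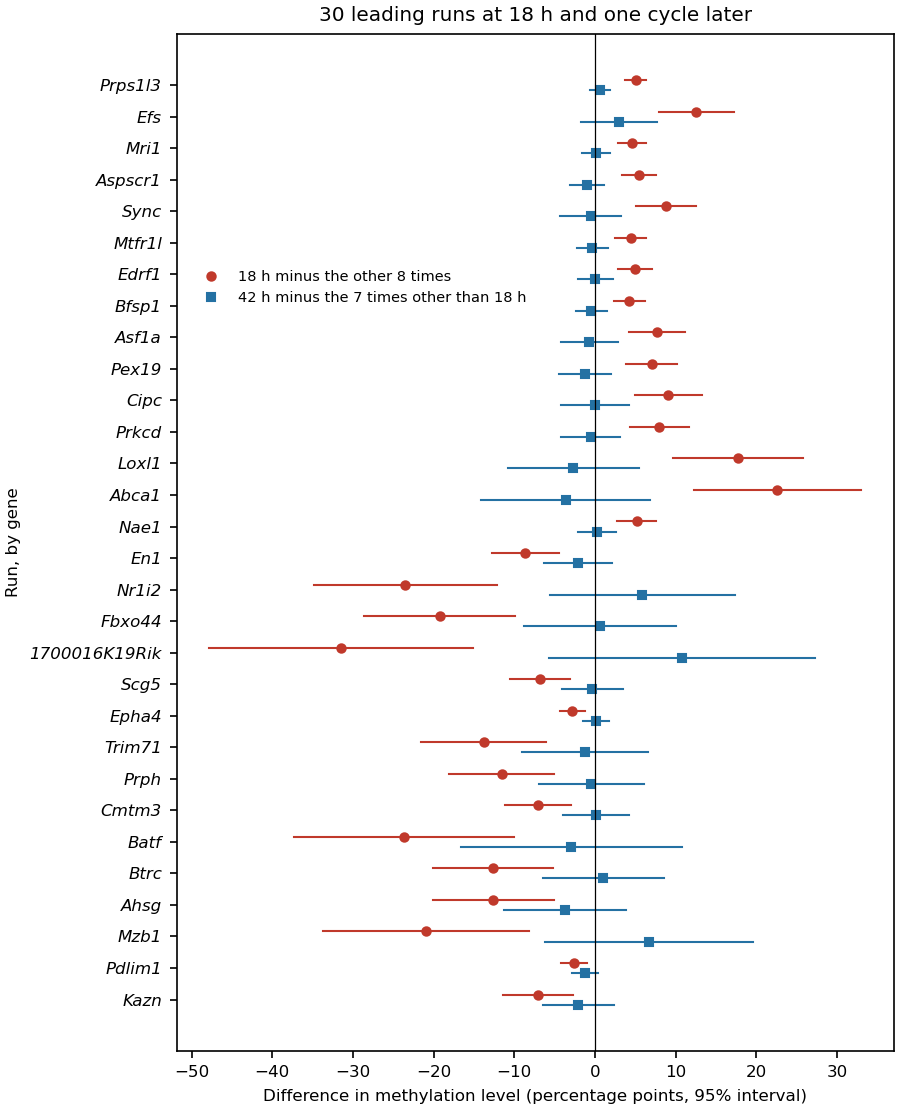
Differences in methylation level in percentage points (x axis) for the 30 runs with the smallest p at 18 h, named by gene (y axis), with 95% intervals: 18 h minus the other 8 times (red circles) and 42 h minus the 7 times other than 18 h (blue squares). Every blue interval includes 0; the runs were chosen on the red values.

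In the core clock list no run passed the test. Cipc and Btrc, described above with roles in the clock, are outside that list. Their runs, among the 30 chosen for the smallest p, had limma unadjusted p-values of 0.000220 and 0.00213. Of 26 names in the core clock list 21 had runs, 51 in all, with a median difference of 0.224 points beside -0.0933 over all runs. By the count, 0 were at an unadjusted p under 0.05 in either direction, against 3.69% higher and 1.22% lower over all runs. The nearest to it was a run 181 bp from Bhlhe41, a repressor of CLOCK and BMAL1, with 2.46%, 4.14% and 3.72% at 18 h, against 0 to 7.95% at the other times (2.19 points, limma unadjusted p = 0.0561). In the largest run of each gene, Arntl, which encodes BMAL1, averaged 2.73% ± 0.294 at 18 h and 2.83% ± 1.8 at the other times, and its partner Clock 2.74% ± 1.5 at 18 h and 1.99% ± 1.38 at the other times. Of the repressors, Per1 averaged 1.18% ± 2.04 at 18 h and 3.98% ± 3.70 at the other times, Per2 3.46% ± 2.90 at 18 h and 1.54% ± 1.23 at the other times, Per3 4.85% ± 0.885 at 18 h and 4.83% ± 1.13, Cry1 5.06% ± 0.260 at 18 h and 4.08% ± 1.08, and Cry2 1.47% ± 0.875 at 18 h and 1.8% ± 1.41. Among the nuclear receptors of the second loop, Nr1d1 averaged 2.97% ± 0.388 at 18 h and 2.15% ± 1.28 at the other times and Nr1d2 0.542% ± 0.342 at 18 h and 1.70% ± 1.14. The 95% intervals of these 9 differences were -2.52 to 2.33 points for Arntl, -1.08 to 2.57 for Clock, -7.60 to 1.99 for Per1, -0.126 to 3.97 for Per2, -1.51 to 1.55 for Per3, -0.581 to 2.55 for Cry1, -2.27 to 1.61 for Cry2, -0.959 to 2.60 for Nr1d1 and -2.65 to 0.337 for Nr1d2. Dbp, an output gene of the clock, averaged 6.85% ± 3.15 at 18 h and 6.31% ± 7.39 at the other times. At 42 h it had 34.9%, 9.48% and 1.94%, so 1 library was far above the other 2, and the difference was 10.4 points (limma adjusted p = 0.987).

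No run of the other 12 lists passed either. Over all runs, 3.69% were higher and 1.22% lower at an unadjusted p under 0.05 (limma). Among the lists of this paragraph, the share higher went from 2.33% (DNA methylation, 1 run) to 5.71% (myogenic regulators, 2 runs). These counts are too small to set a list apart. Genes of the immediate response to serum had 4 of 95 runs higher and 0 lower at an unadjusted p under 0.05, led by Srf, the serum response factor, with 3.5%, 3.4% and 3.4% at 18 h against 0.539% to 4.07% at the other times, and by Fosl1, an AP-1 subunit (4.63% ± 3.10 at 18 h and 1.86% ± 0.966 at the other times; limma adjusted p = 0.752 and 0.756). Myogenic regulators had 2 of 35 runs higher and 0 lower; Fst, the myostatin antagonist follistatin, averaged 3.31% ± 1.62 at 18 h and 1.72% ± 0.658 at the other times. Muscle structure genes had 1 of 21 higher and 1 lower, in Ryr1, the calcium release channel (24.5% ± 3.69 at 18 h and 18.2% ± 5.96 at the other times), and near Tpm3, a tropomyosin (57.6% ± 15.05 at 18 h and 67.3% ± 6.81). In glucose metabolism 2 of 83 runs were higher and 0 lower, in Slc2a3, the glucose transporter GLUT3 (50.0% ± 2.48 at 18 h and 44.0% ± 3.25 at the other times), and in Irs1, an adaptor of the insulin receptor (4.79% ± 1.97 at 18 h and 2.87% ± 1.19). Lipid and mitochondrial genes had 2 of 71 higher and 0 lower, among them Angptl4, an inhibitor of lipoprotein lipase (8.64% ± 4.10 at 18 h and 4.07% ± 3.58 at the other times). Cell cycle genes had 2 of 70 higher and 0 lower, led by a run 609 bp from Wee1, the kinase that holds back mitosis, with 13.2%, 2.33% and 7.20% at 18 h against 0 to 5.09% at the other times (limma adjusted p = 0.331). DNA methylation enzymes and readers had 1 of 43 higher and 0 lower, in Tdg, which removes oxidised methylcytosine (2.66% ± 2.68 at 18 h and 0.490% ± 0.459 at the other times).

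Imprinted genes had 5 of 60 runs higher (8.33%) and 2 lower (3.33%), with a median level of 43.8% and a median difference of 0.747 points. Ascl2, a transcription factor of the placenta, had 36.3%, 19.4% and 75.9% at 18 h, against 0 to 47.8% at the other times, with 2 of 3 libraries inside that range. Germline genes had 3 of 37 higher and 1 lower; a run 492 bp from Dazl, an RNA-binding protein of germ cells, had 100%, 93.7% and 92.0% at 18 h against 66.5% to 94.6% at the other times (limma adjusted p = 0.776). Hox and other developmental genes had 5 of 149 higher and 2 lower, with Pax2 at 12.7% ± 2.23 at 18 h and 7.69% ± 2.53 at the other times, and Nkx2-5, a heart factor, at 37.4% ± 1.23 at 18 h and 32.5% ± 3.77. Marker genes of other cell types had 0 of 21 runs higher and 1 lower for fibroblasts and adipocytes, in Pdgfra, and 1 of 21 higher and 1 lower for immune and neural cells, in Olig2 and Neurog1. Over all runs the shares were 3.69% higher and 1.22% lower, and methylation of these genes names no cell type.

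No difference was detected in the mean over all runs of a library. It was 19.18% ± 0.291 at 18 h and 19.09% ± 0.364 at the other times (SD, n = 3 and 24; difference 0.0920 points, exact permutation test within replicate numbers, two-sided p = 0.638, adjusted over 4 tests 0.768). The means ran from 18.87% to 19.44% at 18 h, against 18.48% to 20.04% at the other times. Runs under 10% averaged 3.60% ± 0.275 at 18 h and 3.53% ± 0.300 at the other times (p = 0.768 by the same exact test), and runs of 10% to 90% averaged 39.4% ± 0.380 at 18 h and 39.3% ± 0.567 (exact p = 0.613). Runs over 90% averaged 94.4% ± 0.350 at 18 h and 94.2% ± 0.263 at the other times, a difference of 0.258 points with an exact p of 0.0329 that did not hold after adjustment (0.132; the smallest p this design allows is 0.00137).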

How the data were processed

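The authors deposited a single set of methylation levels, each a fraction from 0 to 1 for each position and library, per the file headers, with no read counts; the submitters' processing notes name Trim Galore 0.4.0, cutadapt 1.9.1, Bismark 0.14.4, Bowtie2 and build mm10, while a coverage filter or smoothing step is named by none of the sources at hand. No counts were given, so a planned count model could not be used, depth is unknown and nothing was weighted by it. Levels were multiplied to percent. Autosomal positions with a value in all 27 libraries were joined over gaps of at most 100 bp into runs of at least 3 positions, and the mean level per run was fitted in limma 3.58.1 (R 4.3.3, release 1.17.8 of data.table) on all 27 libraries, with time as a factor of 9 levels and replicate number as a block. Contrasts were 18 h against the other 8 times, 18 h against 12 h and 24 h, and 42 h against the 7 times other than 18 h; p-values are two-sided and adjusted by Benjamini-Hochberg with a threshold of 0.05. The scripts were tested on simulated data. Library means were compared by an exact permutation within replicate numbers (scipy 1.17.1, numpy 2.4.6 and pandas 2.3.3 in Python 3.11.15; plots with matplotlib 3.10.9).

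The runs named are the 15 with the smallest p in each direction, the 2 with the smallest p in each of 13 gene lists and the largest run of each clock gene; the time point, lists and tests were chosen with earlier results of these data known. A run was given the gene it overlaps or the nearest within 5000 bp (RefSeq, GRCm38.p6); exons and untranslated regions were not annotated. Positions are printed as deposited, and 99.98% of the 228371 in start windows fall on a CpG counting from 1. Start windows of chromosome 18 were not used here. Alternatives were no block, 18 h against the rest as a pair of groups, M values (log2 of level plus 1 point over 100 minus level plus 1 point), gaps of at most 200 bp, at least 10 positions, mean levels of 10% to 90%, library means subtracted, a variance trend with robust prior, array weights, pieces of at most 20 positions, and libraries left out.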

Additional observations from a re-analysis of the deposited data

How the results depend on the processing

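The count of 1 run at 18 h stayed at 1 with no replicate block, and was 3 with the libraries fitted as a pair of groups and 0 among runs of 10% to 90%, which leave out Prps1l3. It ran from 0 to 12 with libraries left out: 12 without replicate 1 of 18 h, 7 without replicate 2, 11 without replicate 3, and 2, 0 and 0 without all libraries numbered 1, 2 and 3. Without replicate 1 of 18 h, Efs, Mri1, Cipc, Prkcd and En1 were among the calls, without replicate 2 Sync, and without replicate 3 Pex19; Prps1l3 was among them in each of these 3. For 18 h against 12 h and 24 h the count was 0 as a pair of groups, with M values, among runs of 10% to 90% and with library means subtracted, and 0 to 11 with libraries left out. For 42 h it was 7 as a pair of groups, 2 with library means subtracted, 1 with gaps of at most 200 bp, with at least 10 positions or with a variance trend, and 0 to 10 with libraries left out. The mean difference over runs above 90% was 0.258 points without the replicate block (exact permutation p = 0.133 in place of 0.0329), 0.159 over positions and 0.232 with gaps of at most 200 bp, and 0.155 to 0.314 with libraries left out; under 10% it was -0.0909 to 0.165, negative without replicate 2 of 18 h. Across runs, the deviations of same-numbered libraries had a mean correlation of 0.00442 over 108 pairs (highest 0.0320). For libraries of different number it was -0.00218 over 216 pairs (highest 0.0306). Of 27 libraries, 19 correlated best with their own number, although the correlations themselves were small. Library means of replicate 1 were below those of replicate 2 at 9 of 9 times in runs of 10% to 90% and in runs over 90%. They were below those of replicate 3 at 7 and 9 of 9 times in these classes. Those of replicate 2 were below those of replicate 3 at 6 and 4 of 9 times. Library means of replicate 1 were thus lower at most or all times, an offset that went with replicate number. The labels do not say what a number marks. With 3 libraries and unknown depth, differences of several points in runs of 10% to 90% would not be detectable. The median half-width of 7.09 points in this class is for the interval of a single run, before adjustment over all runs. Larger differences in this class did not pass: -31.5 points at 1700016K19Rik and 22.6 at Abca1 (limma adjusted p = 0.412 and 0.330). Leaving out 12 h, no block with M values, the 40 bp split and the direct comparison with 42 h were chosen after seeing the data.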
